A study of Rattus norvegicus with 4 samples.

Results

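The interferon-induced genes described here are 41 genes that cells switch on after exposure to interferons. They were chosen as a fixed list of symbols, with earlier results of these data known. Each of the 41 was found once among the 23999 genes of every count matrix. RNA of single cells from skin wounds of rats was sequenced on day 4 with the 10x Genomics droplet method. Of the 4 libraries, 2 came from wounds injected with purified migrasomes (injected 1 and injected 2) and 2 from wounds that received nothing (uninjected 1 and uninjected 2). Migrasomes are vesicles shed by migrating cells from the fibres that trail them. The uninjected wounds received no sham injection, so effects of the injection and of the migrasomes cannot be told apart. The sources used here name neither the strain, sex and age of the rats nor the cells that gave the migrasomes. The labels do not say that the 2 libraries of a group came from separate animals, so p-values cover only how these libraries spread, in part perhaps for technical reasons.

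Type I interferons bind the receptor pair Ifnar1 and Ifnar2, interferon gamma binds Ifngr1 and Ifngr2, and type III interferons bind Ifnlr1 with Il10rb. The receptors activate transcription factors that bind the interferon-stimulated response element (ISRE), as the complex of Stat2 and Irf9 does, or the gamma-activated site (GAS). The genes switched on block viral replication, sense viral nucleic acids, tag proteins with Isg15 or attract T cells through the receptor CXCR3. In skin wounds, interferons are made by keratinocytes, T cells and dendritic cells, and neutrophils and fibroblasts are among the cells that respond.

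To show what the members share beyond their names, their promoter windows from RefSeq (build GRCr8, 250 bases before to 50 bases after the start of the gene, 300 bases in all) were searched on both strands. A window was matched by symbol for 31 members, and the windows of the other 10 were not used here. The ISRE letters searched were GAAANNGAAA, or TTTCNNTTTC on the other strand, and the GAS letters were TTCNNNGAA, which read the same on both strands. The ISRE letters stood in 17 of the 31 windows (54.8%), against 1312 of all 33469 windows (3.92%). The GAS letters stood in 9 of the 31 (29.0%), against 2970 of all windows (8.87%). Of the members, 4 held both, 9 held neither, and in 1 window (Bst2) the matches overlapped. A match is a run of letters and not a shown binding site. Windows of 5 members that are named below follow, all of them among the 17 with ISRE letters. They are read 5′ to 3′ on the strand of the gene, with the ISRE letters in capitals.
Ifit3, chr1:241527076-241527375, plus strand: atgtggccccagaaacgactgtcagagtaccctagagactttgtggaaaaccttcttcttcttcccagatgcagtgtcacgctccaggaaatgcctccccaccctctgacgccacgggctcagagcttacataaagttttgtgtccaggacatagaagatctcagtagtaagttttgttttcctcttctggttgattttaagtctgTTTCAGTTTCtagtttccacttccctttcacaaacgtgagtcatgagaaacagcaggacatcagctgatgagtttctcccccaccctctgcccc
Oas1a, chr12:41330216-41330515, plus strand: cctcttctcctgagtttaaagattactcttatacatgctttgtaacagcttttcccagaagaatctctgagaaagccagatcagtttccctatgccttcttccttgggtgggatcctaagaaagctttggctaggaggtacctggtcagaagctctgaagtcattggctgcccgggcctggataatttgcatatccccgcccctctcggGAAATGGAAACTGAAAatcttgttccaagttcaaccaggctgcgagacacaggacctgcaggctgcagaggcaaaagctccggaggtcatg
Ifi44, chr2:243303791-243304090, minus strand: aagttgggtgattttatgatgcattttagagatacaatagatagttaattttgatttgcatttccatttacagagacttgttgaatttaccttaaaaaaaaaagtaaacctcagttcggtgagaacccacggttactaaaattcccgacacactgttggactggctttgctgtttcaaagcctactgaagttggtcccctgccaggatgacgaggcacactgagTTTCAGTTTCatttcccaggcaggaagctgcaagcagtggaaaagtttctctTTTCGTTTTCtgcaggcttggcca
Irf7, chr1:205799974-205800273, minus strand: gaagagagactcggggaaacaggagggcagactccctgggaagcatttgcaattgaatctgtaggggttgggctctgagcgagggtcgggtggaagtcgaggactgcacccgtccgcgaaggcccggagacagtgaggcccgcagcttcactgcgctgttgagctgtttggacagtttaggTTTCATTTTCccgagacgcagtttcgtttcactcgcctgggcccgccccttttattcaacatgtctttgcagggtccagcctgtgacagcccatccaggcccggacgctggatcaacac
Gbp5, chr2:233910749-233911048, plus strand: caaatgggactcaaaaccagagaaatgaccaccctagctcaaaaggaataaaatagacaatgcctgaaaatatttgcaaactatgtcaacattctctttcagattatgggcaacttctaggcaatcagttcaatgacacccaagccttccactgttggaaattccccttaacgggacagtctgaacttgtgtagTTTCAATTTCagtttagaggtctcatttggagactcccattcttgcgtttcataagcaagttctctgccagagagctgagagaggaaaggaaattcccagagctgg
The capitals began 44 bases before the start in Ifit3, 69 in Irf7 and 56 in Gbp5. Oas1a carried 2 overlapping matches at 41 and 35 bases before the start, and Ifi44 carried 1 before and 1 after it. No ISRE match was found in the windows of Mx1, Herc6 or Oasl, and Samhd1, Irf1 and Cxcl9 had GAS letters only.

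The matrices held between 75823418 and 105605297 unique molecular identifiers (UMIs, counts of single captured RNA molecules) per library. After cell calling, 6117 to 9859 cells were kept per library, with a median of 1997 to 7796 UMIs. Uninjected 1 stood apart: its median was the lowest, ribosomal protein genes took 17.0% of the UMIs of its cells against 7.14% to 8.60% in the others, and its UMIs of RT1-A2, a class I histocompatibility gene, were the lowest in each class tested (in T and NK cells 91.1 per 1000000, against 1009, 2683 and 2994). Between 13 and 30 cell barcodes were shared by any 2 libraries. Cells were assigned by UMIs of marker genes to classes that are named after those markers and are thus fibroblast-like, neutrophil-like and so on, written without the suffix from here. A total of 5 classes held at least 50 cells in each library and were tested: 2229 fibroblasts, 1288 macrophages, 9473 neutrophils, 10726 keratinocytes and 773 T and NK cells. Uninjected 1 gave only 52 of the macrophages and 63 of the T and NK cells. Between 16.8% and 23.6% of the kept cells of a library entered no class, and between 2.33% and 4.23% met the rule for several. Between 90.5% and 99.9% of the cells of these classes fell into a cluster of the same name when cells were clustered without the members. The clusters were wider than the classes: those named neutrophil held 13542 cells, 9429 of them gated so. For T and NK cells these numbers were 1073 and 770. From markers of other classes, free RNA could make up at most 1.69% of the UMIs of fibroblasts, 3.71% of macrophages, 4.73% of T and NK cells, 6.24% of keratinocytes and 13.4% of neutrophils, with the highest bound in uninjected 1 each time.

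The classes differed in which members they held. Levels are given as counts per 1000000 UMIs of the class (CPM, scaled by trimmed mean of M values), and comparisons between genes are not made, because a level per UMI also depends on the transcript. Among the 5 classes tested, neutrophils had the highest share of 7 members in all 4 libraries (Ifit1, Ifit2, Ifit3, Oasl, Isg15, Irf1 and Irf7). T and NK cells had the highest share of 7 (Bst2, Ifi44, Usp18, Zbp1, Nmi, Gbp2 and Gbp5), fibroblasts of 4 (Ifitm3, Ifi27, Cxcl9 and Cxcl10), macrophages of 1 (Dhx58) and keratinocytes of none. For the other 22 members the leading class differed between libraries. In 12 members the lowest library of the leading class lay above every library of the 4 other classes, namely Ifit2, Ifit3, Oasl, Isg15 and Irf1 in neutrophils, Zbp1, Nmi and Gbp5 in T and NK cells, and Ifitm3, Ifi27, Cxcl9 and Cxcl10 in fibroblasts.

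**Figure D1:**
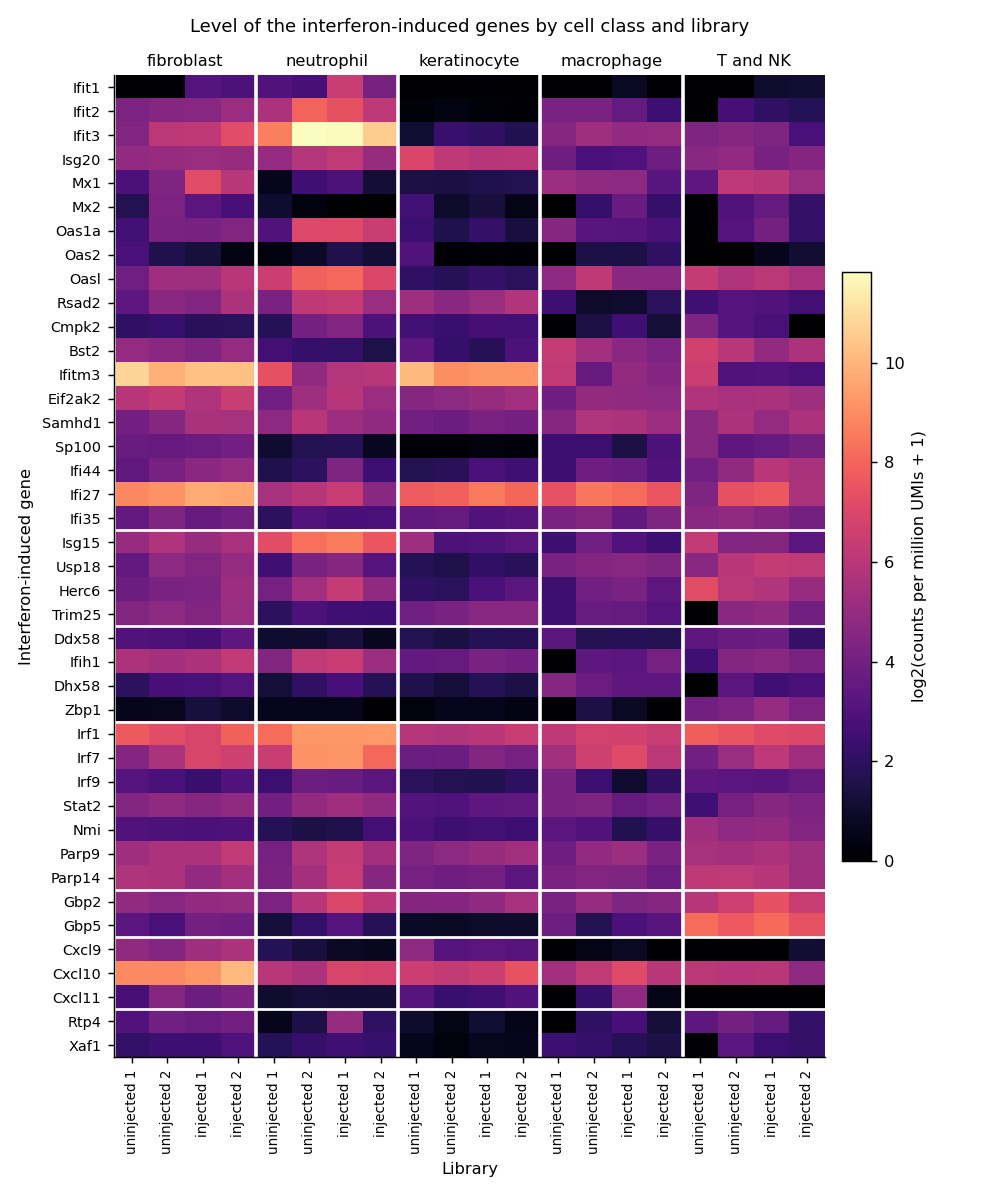
Level of each of the 41 genes (rows, grouped by role) in each cell class and library (columns), as log2(CPM + 1), with brighter colours for higher levels. Ifit3 is brightest in neutrophils, where uninjected 1 is darker than the other 3 libraries, and Ifitm3, Ifi27 and Cxcl10 are brightest in fibroblasts.

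Because Ifitm3 and Ifi27 were abundant in fibroblasts and keratinocytes, sums are given over the other 39 members, a choice made after their levels were seen. Neutrophils gave 1513 UMIs of these 39 genes per 1000000 in uninjected 1, 5718 in uninjected 2, 6169 in injected 1 and 3803 in injected 2. Fibroblasts gave 1227, 1650, 1710 and 2611 per 1000000 in the same order of libraries. T and NK cells gave 1245, 1467, 1653 and 1158, macrophages 604, 885, 780 and 559, and keratinocytes 511, 456, 566 and 707. In these sums neutrophils were the highest class in each library, keratinocytes or macrophages were the lowest, and fibroblasts and T and NK cells overlapped. Ifit3 stayed in the sums and alone gave 1503 of the 5164 neutrophil UMIs in uninjected 1 and 13839 of 24356 in uninjected 2. It gave 13466 of 26080 in injected 1 and 2466 of 5462 in injected 2. The sum of neutrophils thus leaned on 1 gene, and the order of the classes without Ifit3 was not computed. The injected libraries lay above the uninjected ones in fibroblasts and keratinocytes, and below them in none, while the groups overlapped in neutrophils and T and NK cells. In macrophages both injected values lay below that of uninjected 2 and 1 of them above that of uninjected 1.

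Injected and uninjected libraries were compared gene by gene within each class with edgeR's quasi-likelihood test. No member passed an adjusted p of 0.05 in any of the 5 classes. Of all genes tested, 7 of 13047 passed in fibroblasts (0.0537%), 1 of 8610 in macrophages (0.0116%), and none of 8268 in neutrophils, of 14289 in keratinocytes or of 7988 in T and NK cells (0% in each). At an unadjusted p under 0.05, 9 of 41 tested members passed in fibroblasts (10.2% of all genes), 4 of 34 in neutrophils (6.23%), 10 of 37 in keratinocytes (4.63%), 2 of 28 in macrophages (5.70%), both lower, and 3 of 28 in T and NK cells (6.36%), 1 of them higher (background for higher alone 2.21% and 2.43% in the last 2 classes). DESeq2's Wald test called 4 members in fibroblasts (197 genes in all, 1.74%), 1 in neutrophils (20 genes, 0.460%) and 0 in keratinocytes (37 genes, 0.233%), macrophages (7 genes, 0.643%) and T and NK cells (5 genes, 0.0339%). The median log2 change of the tested members was 0.47 in fibroblasts, 0.50 in neutrophils, 0.28 in keratinocytes, -0.19 in macrophages and -0.13 in T and NK cells, while the median of all tested genes lay between -0.06 and 0.01. A member that passed the filter on low counts through 1 group alone had to differ, so these counts and medians describe the tested members only.

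**Figure D2:**
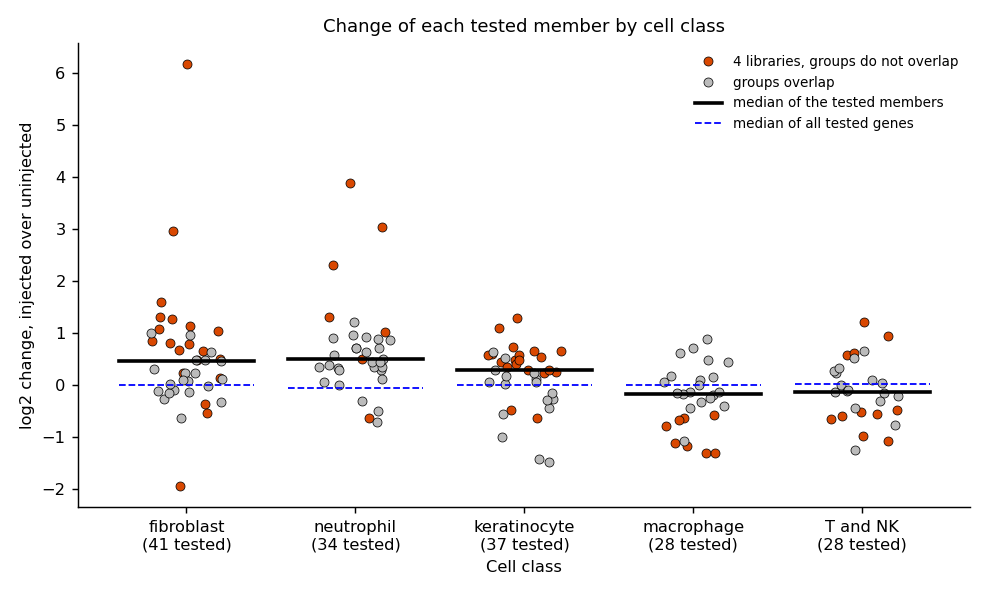
Log2 change of each tested member (points), injected over uninjected, in each of the 5 classes, coloured where the 2 libraries of one group both lie beyond those of the other. The solid line is the median of the tested members and the dashed line that of all genes tested, and the solid line lies above the dashed one in fibroblasts, neutrophils and keratinocytes and below it in macrophages and T and NK cells.

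In fibroblasts, which make the collagen matrix of the wound, no member passed the adjusted threshold, while Irf7, 9 of 19 antiviral effectors and 2 of 3 CXCR3 chemokines were above both uninjected libraries in each injected one. All 41 members were tested, 30 had a log2 change above 0 (50.4% of all genes did), and in 17 both injected libraries lay above both uninjected ones (21.0% of all genes). In 3 the injected libraries both lay below (19.7% of all genes). At an unadjusted p under 0.05, 8 were higher (5.94% of all genes) and 1 was lower.

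Ifit1 (ENSRNOG00000019050), which binds foreign RNA lacking the cap methylation of the host, had 0 UMIs in uninjected 1, 2 in uninjected 2, 131 in injected 1 and 70 in injected 2. These are 0, 0.120, 7.70 and 6.37 CPM, so both injected libraries lay above both uninjected ones. The ratio of the injected to the uninjected share was 75.2, with an exact interval of 20.5 to 625 that covers counting error only. The fitted log2 change was 6.17 (SE 0.645, adjusted p = 0.0506 with edgeR). Ifit1 passed the filter on low counts through the injected libraries alone. It thus had to differ, and p-values obtained after this filter are no separate evidence. The adjusted p was 0.0422 with DESeq2 size factors, 0.0404 with scaling without ribosomal protein genes, 0.0475 with free RNA subtracted and 4.07e-05 with DESeq2's Wald test, and 0.0565 to 0.0648 with total UMIs, with doublets kept, with cluster classes and without injected 1. Without injected 2 it was 0.0464, without uninjected 1 it was 0.000348 and without uninjected 2 it was 0.000494. At most 0.629% of its UMIs in the injected libraries could be free RNA. RefSeq lists a related gene, Ifit1bl, beside Ifit1, and reads shared by the copies make its count uncertain.

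Mx1 (ENSRNOG00000001959), a GTPase that traps viral nucleocapsids, was at 6.13 CPM in uninjected 1, 19.7 in uninjected 2, 144 in injected 1 and 63.1 in injected 2. Its log2 change was 2.95 (SE 0.598, adjusted p = 0.267 with edgeR), and DESeq2's Wald test called it (adjusted p = 1.32e-05). Injected 1 was the highest library, and the groups did not overlap. Samhd1, which depletes the nucleotides that reverse transcription needs, was at 14.8, 22.3, 46.2 and 43.5 CPM in the same order. Its log2 change was 1.26 (SE 0.264, adjusted p = 0.267), and both injected libraries lay above both uninjected ones. Ifi44, an antiviral effector of the cytoplasm, was at 9.73, 16.0, 24.9 and 30.1 CPM, again without overlap (log2 change 1.07, adjusted p = 0.364). Ifit3, a partner of Ifit1, ran from 20.9 in uninjected 1 over 66.6 and 70.4 to 149 in injected 2, so uninjected 2 and injected 1 lay close together. Of the 19 antiviral effectors, 2 were lower in both injected libraries. Among these, Oas2, which makes the 2-5A messenger that activates RNase L, was at 5.77, 2.11, 1.47 and 0.364 CPM (log2 change -1.95, adjusted p = 0.465).

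Among the transcription factors, Irf7, which amplifies type I interferon production, was at 22.0, 48.6, 119 and 96.7 CPM in fibroblasts. Both injected libraries lay above both uninjected ones (log2 change 1.60, SE 0.381, adjusted p = 0.321). Irf1, which acts mainly downstream of interferon gamma, did not follow it, with 209, 151, 121 and 241 CPM and overlapping groups. Irf9 and Stat2, which carry the ISRE-binding complex, overlapped as well (log2 change -0.33 and 0.06). Parp14, a regulator of Stat signalling, was lower in both injected libraries at 28.3 and 40.7 CPM, against 50.6 CPM in uninjected 1 and a level just under that in uninjected 2.

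The CXCR3 chemokines draw activated T cells into tissue. Cxcl9 in fibroblasts was at 27.6, 21.2, 37.7 and 49.7 CPM, and Cxcl10 at 494, 490, 594 and 1098 CPM, so both were above the uninjected libraries in each injected one. Their log2 changes were 0.85 (adjusted p = 0.399) and 0.78 (adjusted p = 0.532). Cxcl11 overlapped between groups (5.58, 22.3, 13.2 and 17.7 CPM). Gbp5, a guanylate-binding protein that attacks the membranes of intracellular pathogens, was at 8.47, 5.84, 15.3 and 13.4 CPM without overlap (log2 change 1.03, adjusted p = 0.375), while Gbp2 overlapped. Isg15, the ubiquitin-like modifier, also overlapped at 32.4, 52.8, 32.7 and 44.5 CPM.

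**Figure D3:**
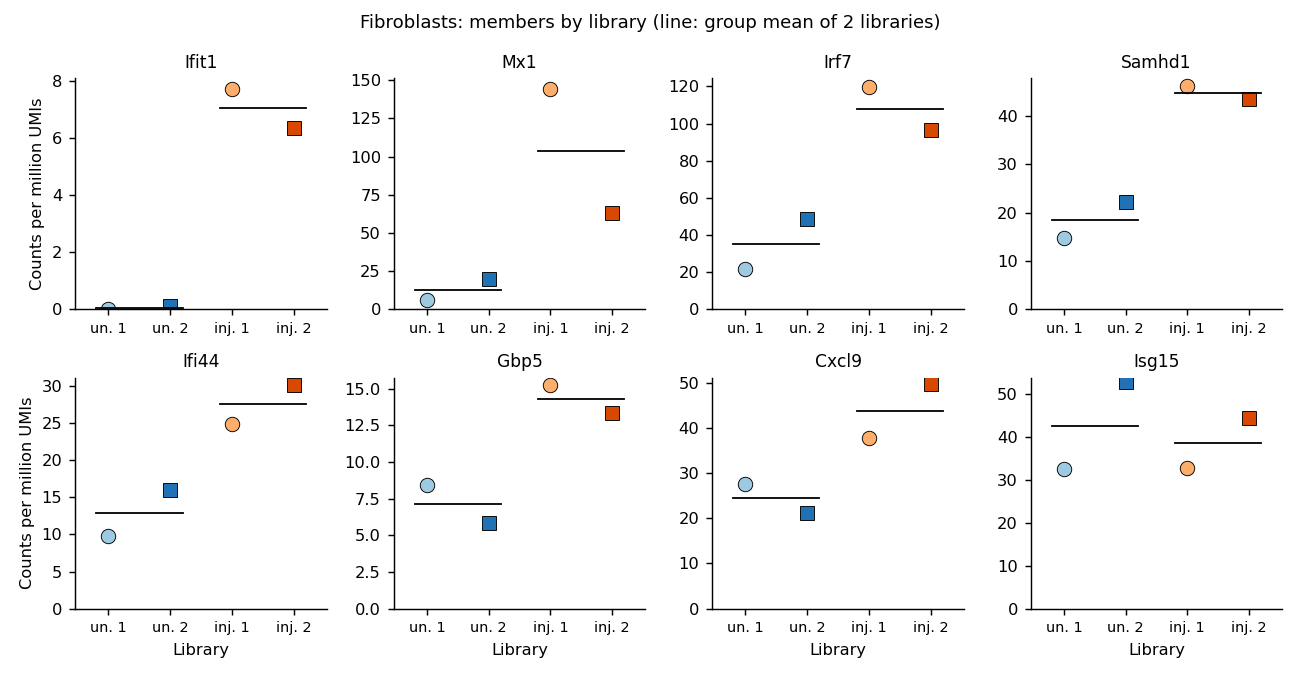
CPM of 8 members in the fibroblasts of each library (points; un. is uninjected, inj. is injected), with the mean of each group as a line and axes from 0. In 7 panels both injected libraries lie above both uninjected ones, and in Isg15 the groups overlap.

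Single fibroblasts were thinned to 1000 UMIs, and cells with fewer were left out (3 of 353, 13 of 571, 18 of 765 and 20 of 540). Cells with at least 5 UMIs of the 39 members made up 8.29% in uninjected 1, 10.0% in uninjected 2, 13.4% in injected 1 and 25.2% in injected 2. The group means were 9.16% ± 1.24 and 19.3% ± 8.35 (SD, n = 2 each), and the exact two-sided permutation p = 0.33 is the smallest that 2 against 2 libraries allow. Injected 2 was thus the highest by some distance, and the groups did not overlap. The Wilson intervals at 95%, which cover counting error only, overlapped for uninjected 2 (7.81 to 12.8) and injected 1 (11.1 to 16.0). Without thinning, in cells with median depths of 15314 to 26688 UMIs, the shares were 68.8%, 88.3%, 83.3% and 84.1%, which overlap. In thinned keratinocytes the shares were 1.24%, 0.966%, 1.46% and 2.63%. Of the unthinned fibroblast UMIs of the 39 members, Cxcl10 alone gave 2742 of 7310 in uninjected 1 and 8147 of 25171 in uninjected 2. It gave 10111 of 29663 in injected 1 and 12073 of 28707 in injected 2. The part of Cxcl10 in the fibroblast shares was not tested.

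More members passed in fibroblasts when an uninjected library was left out, as did more genes in all. Without uninjected 1, 4 members passed the adjusted threshold in fibroblasts (Ifit1, Mx1, Irf7 and, lower, Mx2) beside 262 genes in all (1.91%), and without uninjected 2, 12 passed beside 1078 genes in all (8.07%). The median log2 change of the members was 0.28 without uninjected 1, 0.17 without injected 2 and 0.69 without uninjected 2. Markers of macrophages took 187 to 316 UMIs per 1000000 in fibroblasts, with the highest value in injected 2, and markers of neutrophils 72.0 to 125. The part of other cells in these changes was not tested beyond subtraction of free RNA.

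In neutrophils, the first cells to enter the wound, the members differed more between libraries than between groups. Ifit3 (ENSRNOG00000022839) was at 401 CPM in uninjected 1, 3636 in uninjected 2, 3498 in injected 1 and 1574 in injected 2. Uninjected 1 was thus far below the other 3 libraries, uninjected 2 was the highest, and the groups overlapped (log2 change 0.33, SE 0.938, adjusted p = 0.969). Free RNA could give at most 1.03% of these UMIs. Irf7 was likewise lowest in uninjected 1 and next lowest in injected 2, with 86.7, 555, 594 and 276 CPM, as was Oas1a, another maker of 2-5A, with 7.21, 129, 135 and 87.4. Isg15 was at 149, 310, 390 and 189, Oasl at 88.3, 232, 276 and 126, and Rsad2, an enzyme that makes a chain-terminating nucleotide, at 17.3, 71.5, 80.0 and 33.8 CPM. In these 6 genes uninjected 1 was the lowest and uninjected 2 lay between the injected libraries or above both, so that the comparison of groups has no consistent direction.

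Of the 34 members tested in neutrophils, 29 had a log2 change above 0 (46.0% of all genes did), but only 6 were higher in both injected libraries (16.3% of all genes) and 1 was lower in both (19.3%). At an unadjusted p under 0.05, 4 were higher (2.18% of all genes) and none lower. Ifit1 was at 7.21 and 5.52 CPM in the uninjected libraries and at 86.8 and 16.6 in the injected ones (log2 change 3.04, SE 0.757, adjusted p = 0.762 with edgeR and 0.0134 with DESeq2's Wald test). Rtp4, a chaperone of receptors with antiviral activity, was at 0.534, 1.84, 30.9 and 3.19 CPM (log2 change 3.88, adjusted p = 0.762), which are 2, 7, 119 and 5 UMIs. Rtp4 and Ifi44 passed the filter on low counts through the injected libraries alone, so both had to differ. Both are among the 4 members with an unadjusted p under 0.05. In Ifit1 and Rtp4 injected 1 was by far the highest, and injected 2 was nearer to the uninjected libraries, above both. Without injected 1, the log2 change of Ifit1 was 1.39 (adjusted p = 0.994). Ifi44 was at 2.13, 2.89, 19.2 and 4.47 CPM, Gbp2 at 18.4, 59.9, 127 and 65.1, and Cxcl10 at 62.2, 49.7, 119 and 108, each without overlap.

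The median change of the members in neutrophils was -0.04 without uninjected 1, -0.13 without injected 1, 0.88 without injected 2 and 1.64 without uninjected 2. Without uninjected 1, 2 members passed (Ifit1 and Rtp4, beside 76 genes in all, 0.862%), and without uninjected 2, 12 passed (beside 618 genes in all, 6.90%). Ifitm3, which blocks the entry of viruses, had a different order, with 167 CPM in uninjected 1 against 27.9 to 61.9 elsewhere. Free RNA could give up to 92.2% of its UMIs in uninjected 1, 83.2% in uninjected 2, 69.2% in injected 1 and 20.0% in injected 2.

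Single neutrophils were thinned to 1000 UMIs in the same way, and cells with fewer were left out (1066 of 2898 in uninjected 1, 220 of 2745 in uninjected 2, 427 of 2899 in injected 1 and 95 of 931 in injected 2). Cells with at least 5 UMIs of the 39 members made up 8.35% of thinned neutrophils in uninjected 1 (Wilson interval at 95%, 7.17 to 9.71), in uninjected 2 38.5% (36.6 to 40.4), 41.5% in injected 1 (39.6 to 43.5) and 26.8% in injected 2 (23.9 to 29.9). The intervals cover counting error only. The group means were 23.4% ± 21.3 (SD, n = 2) and 34.2% ± 10.4 (SD, n = 2), with an exact two-sided permutation p = 0.667, where the smallest p that 2 against 2 libraries allow is 0.33. Without thinning the shares were 9.90%, 49.9%, 51.0% and 36.6%. The tenth of the cells with most member UMIs held 43.6% to 48.5% of all of them, and the median cell had 1 to 3.

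Members occurred together in single neutrophils. In uninjected 2, Irf7 was seen in 33.0% of thinned cells with an Ifit3 UMI and in 12.0% of those without, and in injected 1 in 37.0% and 11.9%. Isg15 was seen in 17.1% and 3.58% of them in uninjected 2 and in 23.6% and 7.11% in injected 1. Irf1 was seen in 32.5% of both kinds of cell in uninjected 2 and in 33.2% and 30.9% in injected 1, so it did not go with Ifit3. The same held in uninjected 1, where Irf7 was seen in 15.9% and 5.81% and Irf1 in 22.8% and 23.3%. These shares are descriptions over cells, which are not replicates. An Ifit3 UMI was found in 23.0% of thinned neutrophils in uninjected 1 and in 41.6% to 63.5% elsewhere, against 0.0977% to 0.593% of thinned keratinocytes, whose Ifit3 UMIs could all be free RNA. S100a8 and S100a9, calcium-binding proteins abundant in neutrophils, are among the markers that define this class. Cells low in them may thus be missing here, and the comparison covers gated cells only. Per 1000 UMIs, gated cells rich in members held 38.1 of these in uninjected 1, 10.3 in uninjected 2, 7.22 in injected 1 and 10.6 in injected 2. The other gated neutrophils held 32.4, 8.24, 4.36 and 6.57 in the same order.

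The low level in uninjected 1 was not limited to 1 kind of neutrophil. Among 5 clusters of neutrophils with at least 200 cells, made without the members, Ifit3 in uninjected 1 was the lowest of the 4 libraries in each. In cluster 6 it was at 859 per 1000000 in uninjected 1 (80 UMIs in 77 cells), against 5265, 4915 and 3934 in uninjected 2, injected 1 and injected 2. In cluster 3, which held 67.4% of the neutrophils of uninjected 1, it was at 519 per 1000000, against 2781, 3541 and 2312. The shares of the clusters also moved, since cluster 6 held 2.66% of the neutrophils of uninjected 1 and 29.0%, 37.2% and 20.0% of those of the others. Uninjected 1 had the highest summed level of S100a8 and S100a9 in each of these clusters. Markers of keratinocytes took 3324 UMIs per 1000000 in the neutrophils of uninjected 1, against 1213 to 2114 in the others, and the part of this in the result was not tested.

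**Figure D4:**
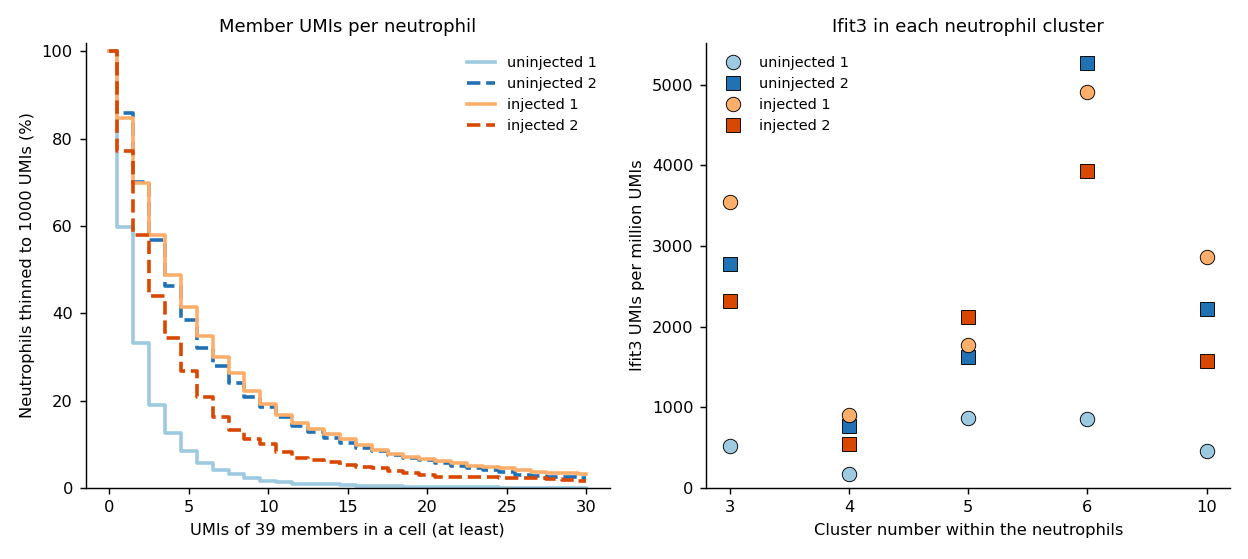
Left, share of neutrophils thinned to 1000 UMIs (y axis, percent) with at least the number of UMIs of the 39 members on the x axis, by library. Right, Ifit3 UMIs per 1000000 in 5 neutrophil clusters by library, with uninjected 1 the lowest in each cluster.

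In keratinocytes, the epithelial cells that close the wound, no member passed the adjusted threshold, Ifitm3 was at 519 to 1110 CPM and Ifi27 at 215 to 366 CPM, and the other 39 members were low in sum. Of 37 tested members, 27 had a log2 change above 0 (50.4% of all genes did), 18 were higher in both injected libraries (18.8% of all genes) and 2 were lower in both (17.7%). At an unadjusted p under 0.05, 9 were higher (1.79% of all genes) and 1 lower. Herc6 (ENSRNOG00000023969), the ligase that joins Isg15 to proteins in rodents, was at 3.27 and 2.82 CPM in the uninjected libraries and at 5.76 and 9.03 in the injected ones (log2 change 1.28, SE 0.295, adjusted p = 0.804). Ifi44 was at 2.33, 2.61, 5.74 and 4.80 CPM (log2 change 1.09, SE 0.239, adjusted p = 0.804). In both genes the groups did not overlap, and the injected libraries lay farther apart than the uninjected ones.

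Several sensors and regulators had smaller differences of the same kind in keratinocytes. Ifih1, the sensor of long double-stranded RNA, was at 10.5, 11.5, 17.7 and 15.0 CPM, and Eif2ak2, the kinase that stops translation on double-stranded RNA, at 22.5, 25.5, 32.5 and 39.5. Trim25, the ubiquitin ligase of the RNA sensor Ddx58, was at 14.0, 17.2, 23.2 and 23.3 CPM. Irf7, Stat2, Parp9 and Gbp2 also had an unadjusted p under 0.05, with log2 changes of 0.54, 0.47, 0.64 and 0.73. Ifi35 went the other way with 10.1, 10.9, 7.16 and 7.92 CPM (log2 change -0.48), and so did Isg20, an exonuclease, with 122, 71.6, 60.7 and 64.5 CPM (log2 change -0.63). Markers of fibroblasts took 82.8, 174, 213 and 194 UMIs per 1000000 in keratinocytes and markers of macrophages 207, 320, 387 and 382, both above the uninjected libraries in each injected one. Their part in these differences was not tested.

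Among keratinocytes, some members were far higher in uninjected 1 than in the other 3 libraries. Isg15 was at 36.3 CPM there and at 6.29, 6.96 and 8.79 CPM in uninjected 2, injected 1 and injected 2. Oas2 had 254 UMIs there and 6, 5 and 3 in the others, and Cxcl9 was at 26.1 CPM against 7.80, 8.75 and 8.10. Uninjected 2 lay with the injected libraries in these 3 genes, so the groups overlapped. Isg15 was also highest in uninjected 1 in T and NK cells, at 76.8 CPM (16 UMIs) against 20.7, 21.0 and 8.45. Without uninjected 2, 4 members passed in keratinocytes beside 597 genes in all (4.05%), among them Isg15 (log2 change -2.19), Cxcl9 (-1.62) and Isg20 (-0.95), all lower, and none passed without any 1 of the other libraries.

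Of 9 interferon ligands, 1 had counts high enough to test in any class. Ifnk, interferon kappa, a type I interferon made by keratinocytes, was at 74.5 CPM in the keratinocytes of uninjected 1, 31.7 in uninjected 2, 13.1 in injected 1 and 14.0 in injected 2. Both injected libraries lay below both uninjected ones (log2 change -1.96, adjusted p = 0.804 with edgeR). Its level in the other 4 classes was at most 4.80 CPM. Ifng, interferon gamma, had 2, 8, 11 and 5 UMIs in T and NK cells and no UMI in macrophages or keratinocytes.

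**Figure D5:**
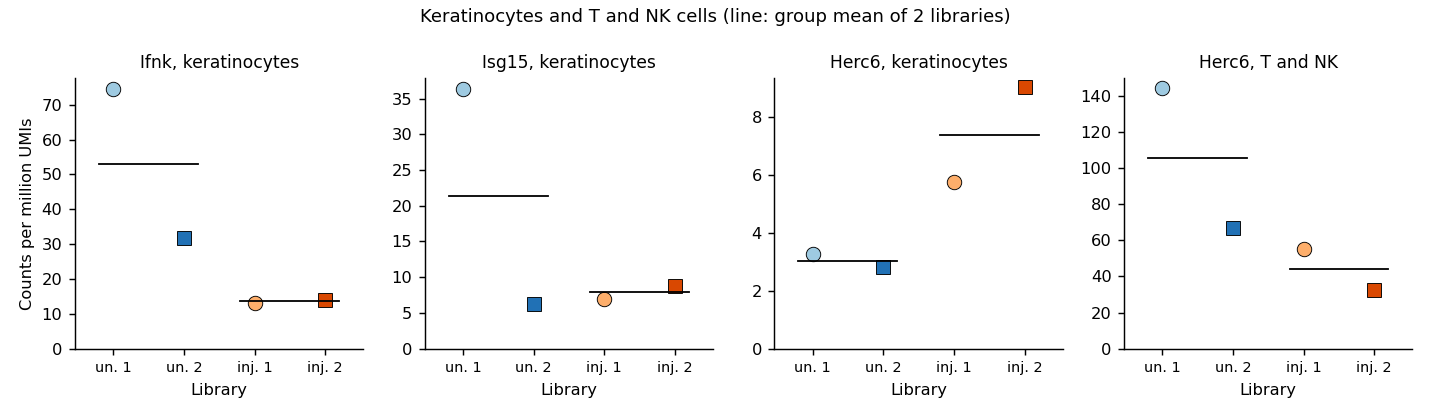
CPM by library (points, with the mean of each group as a line and axes from 0) of Ifnk, Isg15 and Herc6 in keratinocytes and of Herc6 in T and NK cells. Ifnk is lower in both injected libraries, Isg15 is high in uninjected 1 alone, and Herc6 is higher in the injected keratinocytes and lower in the injected T and NK cells.

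In macrophages, which clear debris from the wound, more members had lower than higher levels in the injected libraries, with 52 cells in uninjected 1. Of 28 tested members, 10 had a log2 change above 0 (50.5% of all genes did), none was higher in both injected libraries (20.8% of all genes) and 8 were lower in both (17.8%). Bst2, tetherin, which holds budding virus at the membrane, was at 79.9, 41.4, 24.7 and 18.3 CPM (log2 change -1.32, SE 0.413, adjusted p = 0.820). Oasl was at 26.6, 69.9, 23.9 and 25.2 CPM, a difference that rested on uninjected 2 (log2 change -1.18, adjusted p = 0.820). Irf7 was at 39.9, 96.6, 139 and 66.8 CPM and Cxcl10 at 39.9, 74.0, 138 and 63.1, both with overlapping groups. The median change of the members was -0.34 without uninjected 1, -0.40 without injected 1, 0.35 without uninjected 2 and 0.03 without injected 2, so its sign rested on uninjected 2 and on injected 2.

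In T and NK cells, 28 members were tested, 12 had a log2 change above 0 (50.9% of all genes did), 4 were higher in both injected libraries (21.8% of all genes) and 7 were lower in both (19.0%). Herc6 was at 144 CPM in uninjected 1, 66.8 in uninjected 2, 55.0 in injected 1 and 32.6 in injected 2, from 30, 87, 105 and 27 UMIs (log2 change -1.08, SE 0.434, adjusted p = 0.767). Both injected libraries lay below both uninjected ones, and 1 uninjected library was far above the rest. Bst2 was lower in the same way with 101, 62.2, 29.3 and 49.5 CPM (log2 change -0.98), as was Irf1 with 230, 183, 140 and 127 (log2 change -0.60). Markers of neutrophils took 458.5, 174, 45.15 and 61.4 UMIs per 1000000 in T and NK cells, again lower in both injected libraries, and their part in these differences was not tested. Ifi44 was higher with 14.4, 27.6, 64.5 and 45.9 CPM (log2 change 1.20, SE 0.380, adjusted p = 0.767). Gbp5 had its highest level of all classes here, 293, 209, 285 and 173 CPM, and overlapped between groups. The median change was 0.07 with cells thinned, 0.06 with cluster classes and 0.01 with total UMIs, against -0.13, so it had no stable sign.

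Whether a member changed differently in keratinocytes and in another class was tested with the library as a block. In T and NK cells against keratinocytes, 2 of 40 members differed at an adjusted p of 0.05 (0.708% of all genes) and 6 at an unadjusted one (6.99%). The change of Herc6 was lower in T and NK cells by a log2 difference of -2.27 (SE 0.408, adjusted p = 2.60e-05), with no overlap between groups in either class and opposite directions. It held without uninjected 1 (-1.89, adjusted p = 0.00509), without uninjected 2 (-2.56, adjusted p = 0.000225) and without injected 1 (-3.07, adjusted p = 0.00227), and with cluster classes (-1.93, adjusted p = 0.000313), but not without injected 2 (-1.58, adjusted p = 0.695). The change of Irf1 differed by -0.97 (adjusted p = 0.0498) and passed under none of these 5 alternatives, where the adjusted p ran from 0.214 to 1. In neutrophils against keratinocytes, 1 of 41 members differed (0.216% of all genes; 5 at an unadjusted p under 0.05, against 5.68%), Oas2 with 5.95 (adjusted p = 0.0388), from 1, 3, 8 and 2 UMIs in neutrophils and the high keratinocytes of uninjected 1. Without uninjected 1 that difference was 1.25 (adjusted p = 1). In fibroblasts none of 41 differed by edgeR (0% of all genes; 7 at an unadjusted p under 0.05, against 7.19% of all genes), and in macrophages none of 40 (0.697% of all genes; 5 at an unadjusted p under 0.05, against 7.42%). The difference for Mx1 in fibroblasts was 2.68 (SE 0.603, adjusted p = 0.300). DESeq2 was not run on these differences.

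The other genes of the pathway were read from lists of 89 genes outside the members, and no gene of these lists passed the adjusted threshold in any class. In fibroblasts all 6 interferon receptor genes had a log2 change above 0 (50.4% of all genes did), and 3 had an unadjusted p under 0.05 (5.94% of all genes for higher). Ifnlr1, the receptor chain for type III interferons, was at 18.2, 20.8, 41.6 and 39.2 CPM (log2 change 1.05, adjusted p = 0.267), and Ifngr1 at 62.7, 63.0, 108 and 100 (log2 change 0.73, adjusted p = 0.388). In both, the injected libraries lay above the uninjected ones without overlap. Of 44 other interferon-induced genes, 38 were tested in fibroblasts and 27 had a log2 change above 0, among them Lgals3bp at 103, 132, 249 and 223 CPM (log2 change 1.01, adjusted p = 0.331). In T and NK cells 32 of these genes were tested, and 17 had a log2 change above 0 (50.9% of all genes did). In both injected libraries 7 were higher (21.8% of all genes) and 7 lower (19.0%), near the shares of all genes. An unadjusted p under 0.05 and a higher level were found for 5 (2.43% of all genes), among them Psmb8 of the immunoproteasome (230, 353, 565 and 654 CPM) and the peptide transporter Tap2 (52.8, 51.4, 120 and 105 CPM). Of 12 genes of nucleic acid sensing, 8 were tested in macrophages and 9 in keratinocytes. A log2 change above 0 was found for 4 in each class (50.5% and 50.4% of all genes), near the shares of all genes. In macrophages 2 were higher in both injected libraries (20.8% of all genes) and 1 lower in both (17.8%). In keratinocytes 2 were higher in both (18.8%) and 3 lower in both (17.7%). Among the higher ones, Tlr7, the sensor of single-stranded RNA, was at 22.2, 37.7, 118 and 43.4 CPM in macrophages. Also higher was cGAS, the DNA sensor (Cgas), at 1.56, 1.65, 3.54 and 3.17 CPM in keratinocytes.

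Dendritic, endothelial and mast cells were too few in some library to test. In uninjected 1 they numbered 19, 38 and 27 cells, with 109606, 375898 and 64727 UMIs, so a rate per 1000000 there can rest on few UMIs. In dendritic cells Isg15 took 283 UMIs per 1000000 in uninjected 1, 578 in uninjected 2, 343 in injected 1 and 124 in injected 2, and Samhd1 18.2, 73.6, 94.3 and 105. Isg15 in the uninjected dendritic cells was thus above the neutrophils of the same libraries. In endothelial cells Ifi27 took 912, 1460, 1178 and 1513 UMIs per 1000000, above every library of fibroblasts (439 to 822). There Cxcl10 took 383, 198, 138 and 703 per 1000000 and Gbp2 114, 294, 58.7 and 146, so that injected 1 was the lowest and the groups overlapped. Mast cells of uninjected 1 had 108 Oas2 UMIs per 1000000 and no Oas2 UMI in the other 3 libraries.

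Across the 20 sums of 5 classes in 4 libraries, the 5 genes whose log CPM was most like that of Isg15 among 9821 genes were Ftsj1 (Pearson's r = 0.89), Irf1 (0.88), Pglyrp1 (0.87), AABR07054319.1 (0.86) and Gng8 (0.85). This is a description of points that share libraries and classes, and of the first 15 such genes 2 were members.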

How the data were processed

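The deposited matrices of the 4 libraries hold whole-number UMI counts, empty droplets included. They were written by Cell Ranger 7.2.0 per the file headers, whereas version 5.0.1 of Cell Ranger stands in the processing notes of the submitters. Build and gene annotation: not given in the sources used here. Cells were separated from empty droplets by their UMI total or a profile differing from free RNA (false discovery rate 0.01), and kept with at least 250 genes and at most 20% mitochondrial UMIs. Doublets were removed with the Scrublet function of scanpy 1.11.5. A cell entered a class when at least 3 of its markers were present and their UMIs exceeded what 25% free RNA would give (Poisson p under 0.0001), for exactly 1 class. Counts were summed per class and library and tested with edgeR 4.0.16 (filterByExpr, TMM scaling, quasi-likelihood test, Benjamini-Hochberg adjustment over all tested genes). DESeq2 1.42.0, other scalings, no filter, kept doublets, subtracted free RNA, thinned cells, cluster classes, a replicate block and each library left out were alternatives. The test was tried on simulated counts first. The members and gene lists were chosen with earlier results of these data known. All 41 members were eligible for naming, with pathway genes that passed the test and the interferon ligands and receptors; no pathway gene passed, and the pathway genes other than ligands and receptors, the values of dendritic, endothelial and mast cells, the minimum of 5 member UMIs per cell and the removal of Ifitm3 and Ifi27 from sums were chosen after their values were seen. Cells gated by mural and plasmacytoid dendritic markers had leading genes of other cell types and were left unnamed. Marker genes not found in the matrices (7 of 117) were not analysed here. A result on 1 further pathway gene is not reported here.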

Additional observations from a re-analysis of the deposited data

Results flagged for a closer look

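The change of Herc6 differed between T and NK cells and keratinocytes by a log2 difference of -2.27 (adjusted p = 2.60e-05, edgeR with the library as a block), as a test of the difference itself. That difference leaned on injected 2, without which it was -1.58. The change of Irf1 differed between the same 2 classes by -0.97 (adjusted p = 0.0498). With cluster classes the Irf1 difference was -0.65 (adjusted p = 0.405, edgeR), so it did not hold there. The change of Oas2 differed between neutrophils and keratinocytes by 5.95 (adjusted p = 0.0388), and without uninjected 1, whose keratinocytes held 254 of its UMIs, by 1.25 (adjusted p = 1). Groups held 2 libraries each, too few to look for a single library far from the others of its group.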

How the results depend on the processing

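Depth limits what these libraries can show: uninjected 1 gave 226920 UMIs in macrophages and 252997 in T and NK cells. The count of members passing in fibroblasts was 0 with edgeR as reported (beside 7 genes in all, 0.0537%). It was 1 with DESeq2 size factors, with scaling without ribosomal protein genes and with free RNA subtracted (beside 8 genes each time). That member was Ifit1 in all of these settings. Ifit1 passed the filter on low counts through the injected libraries alone and so had to differ. The count was 4 with DESeq2's Wald test (beside 197, 1.74%) and 10 with no filter on low counts (beside 718). In neutrophils 1 member passed with DESeq2's Wald test (beside 20 genes), and in T and NK cells 1 with no filter (beside 169). Leaving out each library in turn gave 0 to 12 passing members in fibroblasts, 0 to 12 in neutrophils, 0 to 4 in keratinocytes, 0 to 1 in macrophages and 0 to 3 in T and NK cells, with the highest counts without uninjected 2. The median change of the members ran over the same settings from 0.17 to 0.69 in fibroblasts, from -0.13 to 1.64 in neutrophils, from 0.18 to 0.40 in keratinocytes, from -0.40 to 0.35 in macrophages and from -0.51 to -0.036 in T and NK cells. In macrophages it was -0.33 with total UMIs and -0.047 with DESeq2's Wald test. Total UMIs moved the median of all genes to 0.17 in keratinocytes, 0.16 in T and NK cells and -0.14 in macrophages. Members whose change differed from that in keratinocytes numbered 3 in neutrophils and 1 in T and NK cells with cluster classes, and 0 to 4, 0 to 3 and, in macrophages, 0 to 1 with a library left out. The causes were not tested.

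The labels do not say whether libraries with the same replicate number are paired. The correlation of same-numbered deviations was -0.04, -0.02, -0.29, -0.06 and -0.09 in fibroblasts, macrophages, neutrophils, keratinocytes and T and NK cells. With 2 libraries in a group, such a correlation cannot settle whether they are paired. With the number as a block in edgeR, 1 member passed in fibroblasts (Ifit1, adjusted p = 0.0158, beside 18 genes in all) and 0 in the other 4 classes. Of the 168 single-member changes, 79 had another sign under some alternative, none of them past the threshold there. The differences in the share of cells with many member UMIs moved by less than the spread between replicates with 2000 UMIs per cell (10 or more member UMIs) and with 6 or more member UMIs, but those in macrophages changed sign at 2000 UMIs (-1.06 to 0.49 percentage points).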
